A study of Mus musculus with 8 samples.

Results

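Conventional T cells that transcribed Ifng, the gene of the cytokine interferon-gamma, were followed in the mouse colon with and without chemically induced colitis. The cells were chosen by a rule on their transcript molecules, counted as unique molecular identifiers (UMIs). A cell had to stand in the authors' deposited cell list and hold at least 2 UMIs summed over the T cell genes Cd3e, Cd3d, Cd3g, Trac and Trbc2. It had to hold at most 1 UMI each of Cd79a (B cells), Col3a1 (fibroblasts) and C1qa (macrophages). It also had to hold no UMI of Foxp3 (regulatory T cells), Il17a (Th17 cells) or Gzmk (a granzyme), and at least 2 UMIs of Ifng. The rule kept 1041 of the 27420 listed cells (3.80%), or 5.25% of the 19833 listed T cells. The levels of these genes in the chosen cells were therefore set by the choice and are given as a description.

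T helper 1 (Th1) cells are CD4+ T cells that make interferon-gamma under the transcription factor T-bet, the product of Tbx21. Interleukin-12 acting through its receptor and STAT4, and interleukin-18 acting through its own receptor, support this programme. In the intestinal wall, interferon-gamma activates macrophages and raises antigen presentation. In colitis some Th17 cells also start to make it, which is why cells with both cytokines were kept apart here.

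The study profiled colonic lamina propria cells, enriched for CD4+ T cells with a commercial isolation kit, by droplet-based single-cell RNA sequencing of transcript 3' ends. All mice were C57BL/6, aged 10 to 12 weeks and kept under specific-pathogen-free conditions. They were wildtype or carried a serine-to-alanine knock-in substitution and are called mutant below. DSS-treated mice drank 2% dextran sulfate sodium, which injures the colonic epithelium, for 7 days and plain water for 3 days, and untreated mice drank plain water throughout; tissue was taken at day 10. There were 2 libraries for each of the 4 combinations of genotype and treatment, described as independent biological replicates, so every n below counts libraries. Cells of a library are not replicates, and the p-values measure the spread between libraries.

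The chosen cells numbered 134 and 200 in the wildtype untreated libraries and 173 and 110 in the mutant untreated ones. After DSS they numbered 94 and 99 in the wildtype and 44 and 187 in the mutant. Each library held 34497509 to 46960005 UMIs over all of its barcodes and 2749 to 4725 listed cells. The chosen cells had median depths of 2212.5 to 3559 UMIs, against 1885 to 2679 in T cells of the same rule with no Ifng UMI. Pairs of libraries shared 21 to 64 barcodes, of which at most 9 were listed in both. The counts are per gene and from 3' ends, so they do not read the substitution and do not check the genotype labels.

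The label Th1 fitted the markers in part. Cd4 stood at 411 to 665 CPM (UMIs of the gene scaled by all UMIs of the class in the library), and 584 of the 1041 cells (56.1%) held exactly 1 Cd4 UMI. None of the 1041 was without a Cd4 UMI, whereas 1161 of 1329 barcodes that met the rule outside the authors' list had none, so the Cd4 level follows the list and is no check of the label. Tbx21 was caught in 179 of the 1041 cells (17.2%), from 4.55% to 24.3% by library. Tbx21, Cxcr3 or Il12rb2, any of these 3 Th1 genes, was caught in 525 cells (50.4%). Il12rb2 alone was caught in 31.2% of the chosen cells and 11.7% of T cells of the same rule with no Ifng UMI. For Cxcr3 these shares were 13.4% and 9.54%. The share with any of the 3 was not taken in the cells with no Ifng UMI. Cd8a, Cd8b1 or Trdc, genes of CD8 and gamma-delta T cells, were caught in 16 cells (1.54%). Cd8a was at 0 in 3 libraries, and Ncr1 and Trdc in 6 each. A cell without a UMI of a gene at this depth may still transcribe it, so the cells are called Ifng-producing cells below.

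Of the chosen cells, 466 held exactly 2 Ifng UMIs, 196 held 3, and 64 held 10 or more. The highest count was 157, in a cell of the second wildtype DSS library. Just outside the rule stood 1165 cells with 1 Ifng UMI. Tbx21 was caught in 3.92% of the cells with 0 Ifng UMIs, 10.0% of those with 1, 15.2% of those with 2, 13.3% of those with 3, 21.0% of those with 4 to 9 and 25% of those with 10 or more, which was no steady rise. Nkg7, a membrane protein of cytotoxic granules, was caught in 14.2%, 36.7%, 42.5%, 44.9%, 46.7% and 59.4% of the same groups. Ccl5, a chemokine, stood at 423, 1052, 893, 840, 907 and 973 CPM in them. On these genes the cells just outside the rule lay nearer to those just inside than to the cells with no Ifng. At least 2 Ifng UMIs were found in 7.41% to 18.6% of listed T cells by library, against 0.108% to 1.35% of fibroblast-type barcodes and 0% to 0.380% of B-cell-type barcodes. T cells had median depths of 2161.5 to 3155 UMIs, fibroblast-type barcodes 3754.5 to 6622 and B-cell-type barcodes 3280 to 11846.

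The sequences upstream of Ifng, Tbx21 and Nkg7 are shown because T-bet and STAT proteins, which carry the Th1 programme, bind short known motifs. Ifng is set by the rule. Tbx21 and Nkg7 were higher than in T cells with no Ifng UMI but were not called against Gzmk-expressing T cells, as given below. The sequences are the 250 bases before the RefSeq start of each gene on mouse build GRCm38.p6, 5′ to 3′ on the strand of the gene. Capitals mark GGTGTGA, a T-box core, or TTCNNNGAA, a STAT core, searched on both strands. Ifng lies at chr10:118440796-118441045 on the plus strand, Tbx21 at chr11:97115332-97115581 on the minus strand, and Nkg7 at chr7:43436888-43437137 on the plus strand.
Ifng: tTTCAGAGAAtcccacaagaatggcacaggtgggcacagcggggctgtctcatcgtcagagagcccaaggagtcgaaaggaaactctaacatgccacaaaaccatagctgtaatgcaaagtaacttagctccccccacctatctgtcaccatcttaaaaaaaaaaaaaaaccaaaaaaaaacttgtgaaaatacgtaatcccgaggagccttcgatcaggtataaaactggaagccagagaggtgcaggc
Tbx21: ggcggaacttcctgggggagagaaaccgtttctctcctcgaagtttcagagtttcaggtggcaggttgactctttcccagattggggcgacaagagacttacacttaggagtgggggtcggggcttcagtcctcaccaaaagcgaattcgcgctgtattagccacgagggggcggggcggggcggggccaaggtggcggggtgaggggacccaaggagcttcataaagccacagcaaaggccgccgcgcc
Nkg7: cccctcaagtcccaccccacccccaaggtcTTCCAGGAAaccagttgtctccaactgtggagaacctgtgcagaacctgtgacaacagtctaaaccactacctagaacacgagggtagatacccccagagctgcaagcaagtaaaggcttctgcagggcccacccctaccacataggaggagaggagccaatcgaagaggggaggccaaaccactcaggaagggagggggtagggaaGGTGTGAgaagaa
The Ifng window holds 1 STAT core, starting at position -249, and the Nkg7 window holds a STAT core at -220 and a T-box core at -13. The Tbx21 window holds neither. Over all 32851 promoter windows of this length, 3.33% hold the T-box core and 7.02% the STAT core. Over the 548 windows of genes that were higher in Ifng-producing cells than in T cells without Ifng (431 of 555 genes matched), the shares were 3.102% and 8.03%. A match describes letters in the sequence and not binding.

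Ifng-producing cells made up 6.47% and 9.48% of the T cells in the wildtype untreated libraries and 9.61% and 5.12% in the mutant untreated ones. After DSS they made up 3.12% and 3.86% in the wildtype and 1.68% and 5.33% in the mutant. The shares were 7.67% ± 2.24 in untreated and 3.50% ± 1.52 in DSS-treated mice (SD, n = 4 libraries each), a difference of -4.17 points. The groups overlapped, since the second mutant DSS library stood above the second mutant untreated one. An exact permutation test, two-sided, gave p = 0.0571, and 0.114 adjusted over the tests by treatment and by genotype, where the smallest p that 4 against 4 libraries allow is 0.0286. By genotype the shares were 5.73% ± 2.88 in wildtype and 5.44% ± 3.25 in mutant mice (SD, n = 4 each; exact permutation p = 0.943), a difference well within the spread.

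The shares were lower on average after DSS however the T cells were counted, with no adjusted p under 0.05, but whether the groups overlapped depended on the count. Each listed cell was thinned to 1000 UMIs, which left out 319 shallower T cells, and the whole rule was applied again to the thinned counts, which left 1465 to 2329 T cells a library of 1800 to 3507. The shares were then 2.24%, 4.79%, 5.19% and 2.81% in the untreated and 1.11%, 2.09%, 1.10% and 1.46% in the DSS libraries. These groups did not overlap (exact permutation p = 0.0286, adjusted 0.0571). A cell could also enter by losing its Foxp3, Il17a or Gzmk UMIs to thinning, so these are not the same cells at equal depth. With cells of any Il17a count taken in, a choice made after seeing the data, the shares were 12.8% ± 2.63 and 6.47% ± 0.794 (SD, n = 4 each; exact permutation p = 0.0286, adjusted 0.0571), again without overlap. Over T cells with no Foxp3, Il17a or Gzmk UMI alone, the shares were 11.6% ± 2.95 and 6.66% ± 2.45 (SD, n = 4 each; exact permutation p = 0.0857, adjusted 0.171). At 1 or more Ifng UMIs they were 15.6% ± 3.29 and 7.89% ± 3.07 with overlap (exact permutation p = 0.0571, adjusted 0.114), and at 3 or more 4.40% ± 1.63 and 1.84% ± 0.931 without overlap (exact permutation p = 0.0286, adjusted 0.0571).

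The exclusions of the rule moved with treatment and library. Foxp3 was caught in 7.12% to 10.7% of T cells in untreated libraries and in 17.5% to 27.7% after DSS. Il17a was caught in 13.1% to 45.0% of T cells, highest in the first mutant DSS library, where Ifng-producing cells were fewest. Of 2221 T cells with at least 2 Ifng UMIs, 891 held Il17a, 253 Gzmk and 200 Foxp3. Ifng-producing cells as defined here carried 4409 of the 11628 Ifng UMIs of all listed T cells (37.9%). The part of these exclusions in the share was not tested beyond the alternatives above.

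**Figure D1:**
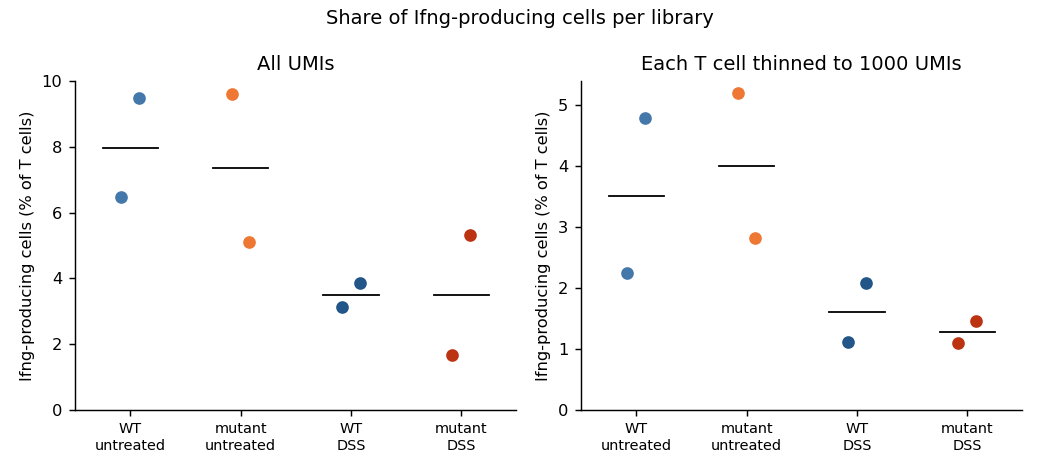
Share of Ifng-producing cells among T cells, in percent, for each library by genotype and treatment, with all UMIs and with each T cell thinned to 1000 UMIs and the rule applied again; points are libraries and black lines group means. The DSS libraries sit between 1.68% and 5.33% with all UMIs and overlap the untreated ones, and between 1.10% and 2.09% after thinning, below all untreated libraries.

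Ifng-producing cells were next compared, within each library, with the 9116 T cells that met the same rule but held no Ifng UMI. Counts were summed per library and class and tested with edgeR's quasi-likelihood test with library as a block, and p-values were adjusted over all genes by the Benjamini-Hochberg method. Of 8026 genes tested, 1013 were called at adjusted p under 0.05 (12.6% of those tested), 555 higher (6.92%) and 458 lower (5.71%) in Ifng-producing cells, with a median log2 fold change over all genes of -0.01. Most of the tested Th1 regulator, cytokine receptor, chemokine and cytotoxic granule genes rose, and most of the tested naive and follicular helper genes fell, with the counts of each list given below.

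Tbx21 showed the largest rise among the Th1 regulators. It stood between 13.9 and 67.9 CPM in Ifng-producing cells, with a median of 59.5, and between 8.67 and 19.2 CPM, median 16.9, in T cells with no Ifng UMI. It was higher in 8 of 8 libraries, although the first mutant DSS library's Ifng-producing cells lay below the highest of the others. The log2 fold change was 1.77 ± 0.14 (SE; edgeR adjusted p = 1.59e-10). Of the 13 Th1 transcription factors and signalling genes, 10 were tested and 7 rose, with a median log2 fold change of 0.42. Bhlhe40, a repressor that favours interferon-gamma over interleukin-10, rose from 398 ± 43.7 to 743 ± 146 CPM (SD, n = 8; log2 fold change 0.88 ± 0.06; edgeR adjusted p = 5.32e-12), with no overlap between the classes. Zeb2 and Prdm1, regulators of effector differentiation, rose by 0.75 and 0.94 on the log2 scale (edgeR adjusted p = 6.43e-08 and 1.34e-07). Runx3, a partner of T-bet, had a log2 difference of 0.10 ± 0.07 (edgeR adjusted p = 0.431).

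Receptor chains of the cytokines that support Th1 cells were among the genes that rose. Il12rb2, the signalling chain of the interleukin-12 receptor, stood at 83.6 to 187 CPM in Ifng-producing cells (median 126) and at 42.6 to 81.1 CPM (median 52.1) in T cells with no Ifng UMI. The classes did not overlap (log2 fold change 1.21 ± 0.11, SE; edgeR adjusted p = 1.06e-09). Both chains of the interleukin-18 receptor rose, Il18rap by 1.11 and Il18r1 by 0.68 on the log2 scale (edgeR adjusted p = 9.77e-10 and 1.55e-08). Of 11 such receptor genes, 10 were tested, 6 rose and 1 fell, with a median of 0.36. The gene that fell was Ifngr2, the signalling chain of the interferon-gamma receptor, by 0.81 on the log2 scale (edgeR adjusted p = 0.00573). Ifngr1, its ligand-binding chain, had a log2 difference of 0.07.

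Among 19 cytokine genes other than Ifng, 11 were tested, 5 rose and 1 fell, with a median of 0.23. Fasl, the ligand of a death receptor, stood at 41.0 to 123 CPM (median 70.8) in Ifng-producing cells and at 16.6 to 40.5 CPM (median 27.0) in T cells without Ifng. The lowest value with Ifng lay just above the highest value without it (log2 fold change 1.35 ± 0.14, SE; edgeR adjusted p = 4.46e-08). Tnf, a macrophage-activating cytokine, rose by 1.13 on the log2 scale, from 17.9 ± 5.73 to 38.3 ± 16.0 CPM (SD, n = 8; edgeR adjusted p = 1.23e-05). Il10, an anti-inflammatory cytokine, fell by 0.90 on the log2 scale (edgeR adjusted p = 0.000193), from 84.9 ± 13.6 to 40.0 ± 25.6 CPM (SD, n = 8), and was lower in 8 of 8 libraries. Il22, an epithelial repair cytokine, was at 21.99 to 265 CPM in Ifng-producing cells and did not pass the test (log2 fold change -0.23 ± 0.29; edgeR adjusted p = 0.712).

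Of 6 chemokine genes, 4 were tested and 3 rose. Ccl5, which draws T cells and monocytes, stood at 397 to 1448 CPM (median 769) in Ifng-producing cells and at 156 to 754 CPM (median 425) in T cells without Ifng. These ranges overlapped, but within every library Ifng-producing cells were higher (log2 fold change 0.98 ± 0.07, SE; edgeR adjusted p = 1.56e-11, and 0.0746 without library as a block). Xcl1, which attracts dendritic cells, had a log2 difference of 2.09 ± 0.31 (edgeR adjusted p = 1.27e-05) and was higher in 7 of 8 libraries. Of 23 homing and residency genes, 21 were tested, 12 rose and 3 fell. Cxcr6, a tissue-residency receptor, rose from 140 ± 39.4 to 298 ± 130 CPM (SD, n = 8; edgeR adjusted p = 9.2e-11). Those that fell were S1pr1, the receptor for leaving tissue, by 1.07 on the log2 scale (edgeR adjusted p = 3.85e-07), Ccr6, the Th17 homing receptor, by 1.79 (edgeR adjusted p = 8.75e-05), and Itgae, a residency integrin. Itgae stood at 11.2 ± 8.36 against 21.6 ± 9.21 CPM (SD, n = 8), was lower in 7 of 8 libraries and fell by 1.01 (edgeR adjusted p = 0.0180, 0.0761 without the first wildtype DSS library and 0.153 without the second mutant DSS library). Cxcr3, often used to mark Th1 cells, did not pass the test (42.2 ± 15.5 against 40.7 ± 5.45 CPM, SD, n = 8; log2 fold change 0.07 ± 0.14; edgeR adjusted p = 0.849).

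Of 18 cytotoxic granule and natural killer (NK) receptor genes, 12 were tested and 11 rose, with a median of 0.84. Nkg7 stood at 188 to 436 CPM (median 312) in Ifng-producing cells and at 45.1 to 171 CPM (median 92.3) in T cells without Ifng. The classes did not overlap (log2 fold change 1.67 ± 0.08, SE; edgeR adjusted p = 5.66e-16), and this was the smallest p of the genes tested outside the rule. Ctsw, a protease of cytotoxic cells, rose by 1.21 on the log2 scale (edgeR adjusted p = 6.97e-09). Gzma, a granzyme, had a log2 difference of 0.61 (edgeR adjusted p = 0.0118, 0.0757 without the second wildtype DSS library, and 0.583 at most over the alternatives). Gzmb, the granzyme of classical killer cells, did not pass the test (log2 fold change -0.12; edgeR adjusted p = 0.619). Markers of NK cells and innate lymphoid cells summed to 259 to 592 CPM in Ifng-producing cells and 287 to 511 CPM in T cells without Ifng, and CD8 markers to at most 55.7 and 11.05 CPM.

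Most resting T cell genes were lower. Of 10 naive and quiescence genes, all 10 were tested and 8 fell, with a median of -0.71. Lef1 and Tcf7, transcription factors of naive and memory T cells, fell by 1.28 and 0.87 on the log2 scale (edgeR adjusted p = 8.66e-08 and 7.8e-07). Of 9 follicular helper genes, 5 fell and none rose, with a median of -0.84, among them Cxcr5, the B-cell follicle receptor (fell by 1.90; edgeR adjusted p = 3.57e-06). Of 13 regulatory T cell genes, 5 fell and 1, Il2ra, rose, although Foxp3-positive cells were left out of both classes; 3 fell on leaving out any of 6 libraries (all but the second wildtype DSS and the second mutant DSS library). Of 17 Th17 genes, 15 were tested, 5 rose (Irf4, Rora, Stat3, Tmem176a and Tmem176b) and 2 fell, with a median of 0.08. Tmem176a and Tmem176b lost their calls without the second mutant DSS library. Those that fell were Ccr6 and Il1r1, the interleukin-1 receptor (fell by 1.13).

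Some genes of antigen-receptor signalling and glycolysis, and most of those of proliferation and stress, were higher as well. Of 19 antigen-receptor response genes, 11 rose and 1 fell, with a median of 0.33. Dusp2, an induced phosphatase, stood at 257 to 363 CPM (median 302) in Ifng-producing cells and at 118 to 174 CPM (median 132) in the others, without overlap (log2 fold change 1.11 ± 0.07; edgeR adjusted p = 8.1e-13). Of 11 proliferation genes, 10 were tested and 7 rose, with a median of 0.57, Mki67 by 0.87 (edgeR adjusted p = 7.32e-06). Of 15 glycolysis genes, 4 rose, among them the glucose transporter Slc2a3 (1.23; edgeR adjusted p = 2.2e-07) and hexokinase Hk2 (0.98; edgeR adjusted p = 3.4e-08). Of 24 genes that interferon-gamma induces in its target cells, 22 were tested, 4 rose and 4 fell, with a median of 0.05; 1 fell without the second wildtype untreated library and 2 without the first wildtype DSS library. Of 11 heat-shock genes, chaperones induced by heat and other cell stress, 10 rose, with a median of 0.24, Hspa1a by 0.95 ± 0.07 (edgeR adjusted p = 1.35e-11). Without library as a block none of the 10 was called, and Hspd1 lost its call without any of 5 libraries, Hsph1 without any of 3 and Dnajb1 without either mutant untreated library.

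These differences are paired within libraries. A fit without library as a block called 418 genes, all among the 1013, and among those no longer called was Stat4 (edgeR adjusted p = 0.138). In that fit 4 cytotoxic genes were higher in place of 11, 6 homing genes in place of 12, 6 antigen-receptor response genes in place of 11, 1 Th17 gene in place of 5, 1 chemokine in place of 3, 2 glycolysis genes in place of 4 and no interferon-gamma-induced gene, and 4 naive genes were lower in place of 8. With both classes restricted to cells of 1000 to 5000 UMIs, 736 of the 1013 genes were called again, Tbx21, Il12rb2, Nkg7, Ccl5, Cxcr6, Tnf, Lef1 and Tcf7 among them. With cells thinned to 1000 UMIs, Tbx21 was caught in 6.49% of Ifng-producing cells and 1.57% of T cells without Ifng, Nkg7 in 23.2% and 7.50%, and Ccr7 in 6.20% and 14.0%.

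**Figure D2:**
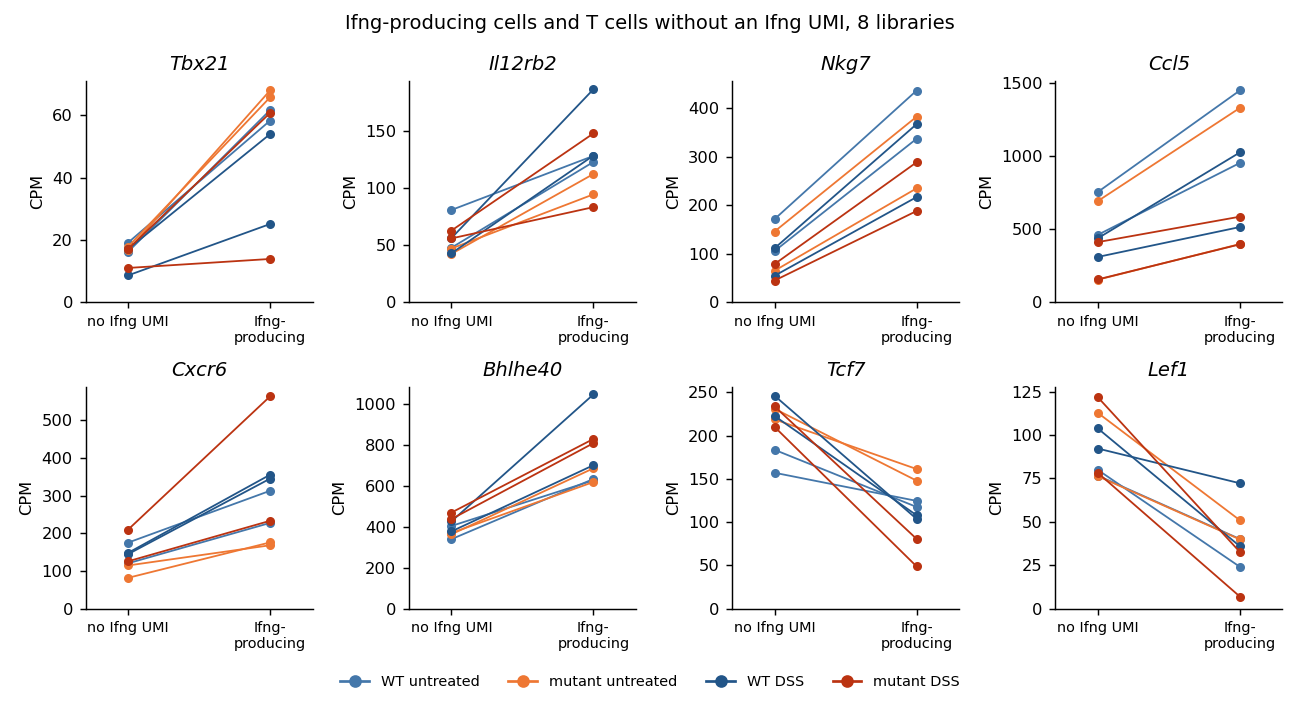
Levels in CPM of Th1, cytotoxic and resting T cell genes in T cells with no Ifng UMI and in Ifng-producing cells, with a line joining the classes of each library and colours for the groups. Tbx21, Il12rb2, Nkg7, Ccl5, Cxcr6 and Bhlhe40 were higher, and Tcf7 and Lef1 lower, in Ifng-producing cells in 8 of 8 libraries.

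Shares of Ifng-producing cells with at least 1 UMI of other genes depend on depth and are given as a description. Ccl5 or Nkg7 was caught in 639 of 1041 cells (61.4%, from 40.9% to 75.4% by library), and both together in 277 (26.6%, from 13.8% to 45.5%). Gzma or Gzmb was caught in 220 cells (21.1%), Il10 in 73 (7.01%) and Il22 in 56 (5.38%), where Il10 was caught in 11.2% and Il22 in 4.42% of T cells without Ifng. Hspa1a was caught in 385 cells (37.0%), from 13.4% to 64.2% by library.

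The cells were then set against 291 T cells with at least 2 UMIs of Gzmk and no Foxp3 or Il17a UMI. Gzmk marks a cytotoxic-like T cell state. These 291 cells were taken at any Ifng count, so this was not a comparison of cells with and without Ifng. The Ifng-producing cells are the same in all 3 class comparisons, so these comparisons are not independent of each other. Of 2968 genes tested, 54 were called (1.82%), 44 higher (1.48%) and 10 lower (0.337%) in Ifng-producing cells, with a median over all genes of -0.02. Ccl5 and Gzma were higher in the Gzmk-expressing cells. Ccl5 stood at 1086 to 5651 CPM (median 3492) there and at 397 to 1448 CPM in Ifng-producing cells, which were higher in 1 of 8 libraries, the first wildtype untreated one (fell by 1.92 on the log2 scale; edgeR adjusted p = 0.000759). Gzma stood at 109 ± 88.3 CPM in Ifng-producing and 273 ± 158 CPM in Gzmk-expressing cells (SD, n = 8) and was lower in 8 of 8 libraries (fell by 1.28; edgeR adjusted p = 0.00073). Esm1, a secreted proteoglycan, fell by 2.05 (edgeR adjusted p = 0.00073).

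Higher in Ifng-producing cells was S100a4, a calcium-binding protein of effector T cells, at 544 ± 146 against 190 ± 70.1 CPM (SD, n = 8; log2 fold change 1.49 ± 0.14; edgeR adjusted p = 2.13e-07). Cxcr6 was higher in 8 of 8 libraries, at 298 ± 130 against 125 ± 64.2 CPM (SD, n = 8; edgeR adjusted p = 0.00073). Of 10 Th1 regulators tested, 3 rose, Bhlhe40, Zeb2 and Nfil3, with a median of 0.49. Zeb2 lost its call without the first wildtype DSS library (edgeR adjusted p = 0.0131, then 0.0519), and Nfil3, a transcription factor of innate and helper cells, without any of 3 libraries, the first wildtype untreated, the second mutant untreated and the first mutant DSS one (edgeR adjusted p = 0.0254, then up to 0.0880). Of 8 Th17 genes tested, 3 rose, with a median of 0.41, among them Rora, a nuclear receptor (0.69; edgeR adjusted p = 0.00073), and Tmem176a (1.45; edgeR adjusted p = 0.00176). Nkg7 and Il12rb2 did not pass the test, with log2 differences of 0.09 ± 0.16 and 0.06 ± 0.15 (edgeR adjusted p = 0.934 and 0.975). Tbx21 had a log2 difference of 0.62 ± 0.25 (edgeR adjusted p = 0.322) and was higher in 8 of 8 libraries. The Gzmk-expressing class held only 10 to 118 cells a library. Without library as a block 20 genes were called, and Cxcr6 and Gzma were no longer among them (edgeR adjusted p = 0.055 and 0.190).

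Against 688 T cells with at least 2 UMIs each of Il17a and Ifng and no Foxp3 UMI, 369 of 4541 genes were called (8.13%), 167 higher (3.68%) and 202 lower (4.45%) in Ifng-producing cells, with a median over all genes of 0.01. Most Th17 genes were lower. Of 17, 13 were tested, 10 fell and none rose, with a median of -0.61. Il17f, a cytokine made beside Il17a, stood at 0 to 25.8 CPM (median 6.50) in Ifng-producing and 37.7 to 464 CPM (median 236) in double-positive cells, without overlap (fell by 4.59 on the log2 scale, SE 0.21; edgeR adjusted p = 8.45e-15). Ccl20, the ligand of Ccr6, fell by 3.77 (edgeR adjusted p = 7.06e-10), and Il1r1 by 2.15 (edgeR adjusted p = 1.03e-07). Il22 stood at 135 ± 104 against 588 ± 441 CPM (SD, n = 8) and was lower in 7 of 8 libraries, with the second mutant DSS library the exception (fell by 1.97; edgeR adjusted p = 0.000564). Areg, an epithelial growth factor, fell by 1.77 (edgeR adjusted p = 5.1e-08).

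Some cytotoxic and interferon-gamma-induced genes were higher in Ifng-producing than in double-positive cells. Ccl5 stood at 831 ± 417 against 276 ± 145 CPM (SD, n = 8) and was higher in 8 of 8 libraries (log2 fold change 1.59 ± 0.14; edgeR adjusted p = 7.43e-09). Il12rb2 stood at 126 ± 32.0 against 61.1 ± 21.4 CPM (SD, n = 8), also higher in 8 of 8 (1.07 ± 0.15; edgeR adjusted p = 1.82e-05). Of 8 cytotoxic genes tested, 5 rose, with a median of 0.63, and of 15 interferon-gamma-induced genes 5 rose, with a median of 0.39. The cytotoxic count was 3 without the first or the second wildtype untreated library (Ctsd lost its call and Klrk1 was not tested), and the other was 3 without the second mutant untreated or the second wildtype DSS library (Igtp and Nlrc5 lost their calls). Of the 5 cytotoxic genes, Ctsd, Klrk1 and Fcer1g were not called with DESeq2, at 3 or more Ifng UMIs or in cells of 1000 to 5000 UMIs. Nor were they called without cells holding a Cd8a, Cd8b1, Trdc, Ncr1 or Tyrobp UMI. Nkg7 and Ctsw kept their calls in each of these. Summed, the interferon-gamma-induced genes stood at 1261 to 1816 CPM in Ifng-producing and 830 to 1621 CPM in double-positive cells, and the classes overlapped. Tbx21 was at 50.9 ± 20.1 against 32.1 ± 14.7 CPM (SD, n = 8; 0.81 ± 0.21; edgeR adjusted p = 0.0135) and lost its call without the first or the second mutant untreated library (edgeR adjusted p = 0.0554 and 0.0656), without library as a block, and in cells with at least 3 Ifng UMIs. DESeq2 gave it no adjusted p, and in cells of 1000 to 5000 UMIs it did not pass the filter on low counts. Of 10 Th1 regulators tested, 5 fell and 2 rose, Tbx21 and Irf1, with a median of -0.26. Zeb2 fell by 0.99, from 650 ± 110 to 330 ± 116 CPM (SD, n = 8; edgeR adjusted p = 2.16e-08), Bhlhe40 by 0.30 (edgeR adjusted p = 0.00425) and Id2 by 0.38. Prdm1 fell by 0.53 (edgeR adjusted p = 0.0149, and 0.0752 without the second mutant untreated library), and Irf1, an interferon-induced transcription factor, rose by 0.38 (edgeR adjusted p = 0.0480), a call lost under most alternatives. Cxcr6, a residency receptor, fell by 0.70 (edgeR adjusted p = 1.67e-05). Tnf had a log2 difference of -0.09 (edgeR adjusted p = 0.930). Without library as a block 135 genes were called, and Bhlhe40 and Cxcr6 were not among them.

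**Figure D3:**
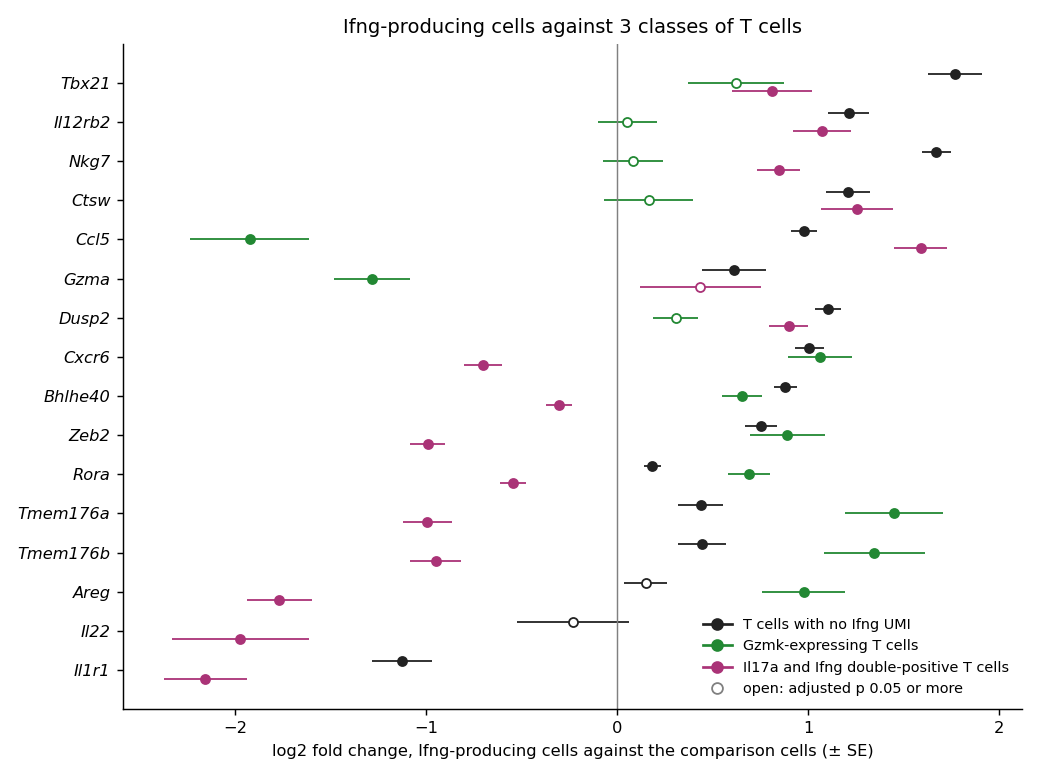
Log2 fold change, with its standard error, of Ifng-producing cells against T cells with no Ifng UMI, Gzmk-expressing T cells, and Il17a and Ifng double-positive T cells; filled points have an adjusted p under 0.05 and open points do not. Tbx21 was called against the first and the last of these classes but not against Gzmk-expressing cells, and Bhlhe40 and Zeb2 changed sign between the classes.

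Few transcripts within Ifng-producing cells passed the test for DSS at 2 libraries a group. Over both genotypes, 78 of 5662 genes tested were called (1.38%), 33 higher (0.583%) and 45 lower (0.795%) after DSS, with a median over all genes of 0.00 and 904 genes at an unadjusted p under 0.05. In the wildtype alone 2 were called (0.0353%), both lower, while 466 genes had an unadjusted p under 0.05 and DESeq2 called 2 higher and 3 lower. In the mutant 48 were called (0.848%), 22 higher (0.389%) and 26 lower (0.459%), while 718 genes reached an unadjusted p under 0.05. Of the 48, 8 were called again without the second mutant DSS library, 20 without the first mutant untreated library and 20 with DESeq2. A call in 1 genotype and not in the other is not a difference between them, and that difference was tested directly below.

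Lmna, which encodes the nuclear lamins A and C, stood at 412 and 454 CPM in the wildtype and 273 and 286 CPM in the mutant untreated libraries. After DSS it stood at 113 and 173 CPM in the wildtype and 111 and 137 CPM in the mutant. All 4 DSS libraries lay below all 4 untreated ones, and Lmna fell by 1.39 on the log2 scale (SE 0.16; edgeR adjusted p = 0.000293). It fell in the wildtype alone by 1.62 (edgeR adjusted p = 0.00313, and 0.112 without the first wildtype DSS library) and in the mutant alone by 1.15 (edgeR adjusted p = 0.0206). In T cells with no Ifng UMI, Lmna stood at 180 to 271 CPM untreated and 78.3 to 110 CPM after DSS, so the same direction was seen outside the Ifng-producing cells.

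Crip1, a small LIM-domain protein, stood at 3023, 2659, 2039 and 1542 CPM in the untreated libraries (wildtype first, then mutant) and at 1015, 1071, 975 and 1265 CPM after DSS. The groups did not overlap. In the wildtype Crip1 fell by 1.45 (SE 0.19; edgeR adjusted p = 0.00313), a call lost without the first or the second wildtype DSS library (edgeR adjusted p = 0.0782 and 0.0711). Ifi27, an interferon-inducible gene, stood at 165, 159, 183 and 148 CPM untreated and 66.0, 79.1, 48.8 and 45.5 CPM after DSS, again without overlap. Ifi27 fell by 1.53 (SE 0.18; edgeR adjusted p = 0.000293), and leaving out any library left the call in place. In T cells with no Ifng UMI it stood at 118 to 151 CPM untreated and 47.4 to 91.7 CPM after DSS.

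Atf3, a stress-induced transcription factor, stood at 78.3, 107, 146 and 120 CPM untreated and 59.7, 32.4, 41.8 and 24.5 CPM after DSS. It fell by 1.66 (SE 0.23; edgeR adjusted p = 0.00118, and 0.0552 without the second mutant DSS library). Jaml, an adhesion molecule, fell by 1.75 (edgeR adjusted p = 0.0119, and 0.170 without the second mutant DSS library). Of the cytotoxic granule and NK receptor genes, Klrd1, an NK receptor chain, was called higher after DSS and Gzmb lower. DESeq2 called neither, and the Klrd1 call was lost on leaving out most of the libraries. Gzmb stood at 151, 185, 191 and 101 CPM untreated and 66.0, 108, 62.7 and 93.4 CPM after DSS, the groups overlapping by 1 library. It fell by 0.91 (edgeR adjusted p = 0.0480), a call lost on leaving out any of 6 of the 8 libraries (edgeR adjusted p up to 0.224).

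Higher after DSS was Itgb3, the beta-3 integrin chain, at 22.1, 24.4, 18.4 and 4.69 CPM untreated and 47.1, 50.3, 90.6 and 70.04 CPM after DSS. The groups did not overlap (log2 fold change 1.75 ± 0.30, SE; edgeR adjusted p = 0.00542), and the call held without any single library. Saa3, an acute-phase protein made mostly by epithelial and myeloid cells, stood at 4.02, 1.43, 2.83 and 0 CPM untreated and 18.8, 53.9, 41.8 and 46.7 CPM after DSS (4.08 ± 0.57; edgeR adjusted p = 0.00118). DESeq2 gave neither gene an adjusted p. In cells with at least 3 Ifng UMIs, Itgb3 was no longer called (edgeR adjusted p = 0.164) and Saa3 did not pass the filter on low counts. In T cells with no Ifng UMI Saa3 stood at 1.30 to 5.90 CPM untreated and 5.78 to 64.0 CPM after DSS. Macrophage and monocyte markers summed to 117 to 239 CPM in Ifng-producing cells untreated and 84.1 to 306 CPM after DSS, and the part of RNA from other cells in the Saa3 difference was not tested. Neutrophil markers summed to at most 1.43 CPM in untreated libraries and to 1056 CPM in the second mutant DSS library.

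Of 11 regulatory T cell genes tested, 3 rose, Ctla4, Tnfrsf9 and Areg, with a median of 0.46. Ctla4, an inhibitory receptor, stood at 508, 523, 451 and 465 CPM untreated and 581, 928, 801 and 869 CPM after DSS, without overlap (0.68 ± 0.15, SE; edgeR adjusted p = 0.0324). Its call was lost on leaving out any of 6 libraries (edgeR adjusted p up to 0.265), that of Tnfrsf9 on leaving out any of 4 (up to 0.244) and that of Areg on leaving out any of 5 (up to 0.187). In T cells with no Ifng UMI Ctla4 stood at 392 to 495 CPM untreated and 612 to 697 CPM after DSS. Whether any of these changes differed between the classes was not tested.

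Tbx21, Nkg7, Ccl5, Cxcr6, Il12rb2 and Tnf, higher than in T cells without Ifng, did not pass the test for DSS over both genotypes. Other genes higher in Ifng-producing cells did, among them Jaml and the chemokine Cxcl10, which both fell after DSS. The log2 fold change of Cxcl10 was -1.90 to -1.04 over the alternatives, and DESeq2 did not call it. Xcl1 was called lower after DSS in the mutant, but not with DESeq2, at 3 or more Ifng UMIs or in cells of 1000 to 5000 UMIs. Ccr7, a naive T cell gene lower in Ifng-producing cells, was called higher after DSS. Its log2 fold change was 0.67 to 1.66 over the alternatives, of which 6 of 14 lost the call. Naive and quiescence genes summed to 1603 to 1805 CPM untreated and 1756 to 1897 CPM after DSS, with overlap. Tbx21 stood at 58.2, 61.6, 67.9 and 65.7 CPM untreated and 25.1, 53.9, 13.9 and 60.7 CPM after DSS, and the groups overlapped (log2 fold change -0.53 ± 0.27; edgeR adjusted p = 0.341). Nkg7 had a log2 difference of -0.38 (edgeR adjusted p = 0.346), Ccl5 of -0.73 (0.187), Cxcr6 of 0.69 (0.101), Il12rb2 of 0.30 (0.454) and Tnf of -0.54 (0.339). Of 10 Th1 regulators tested none was called, with a median of -0.04, and of 9 cytokine receptors none, with a median of 0.13. Of the 78 calls over both genotypes, 17 were made again without the second wildtype DSS library, 25 without the second mutant DSS library and 30 without the second wildtype untreated library.

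**Figure D4:**
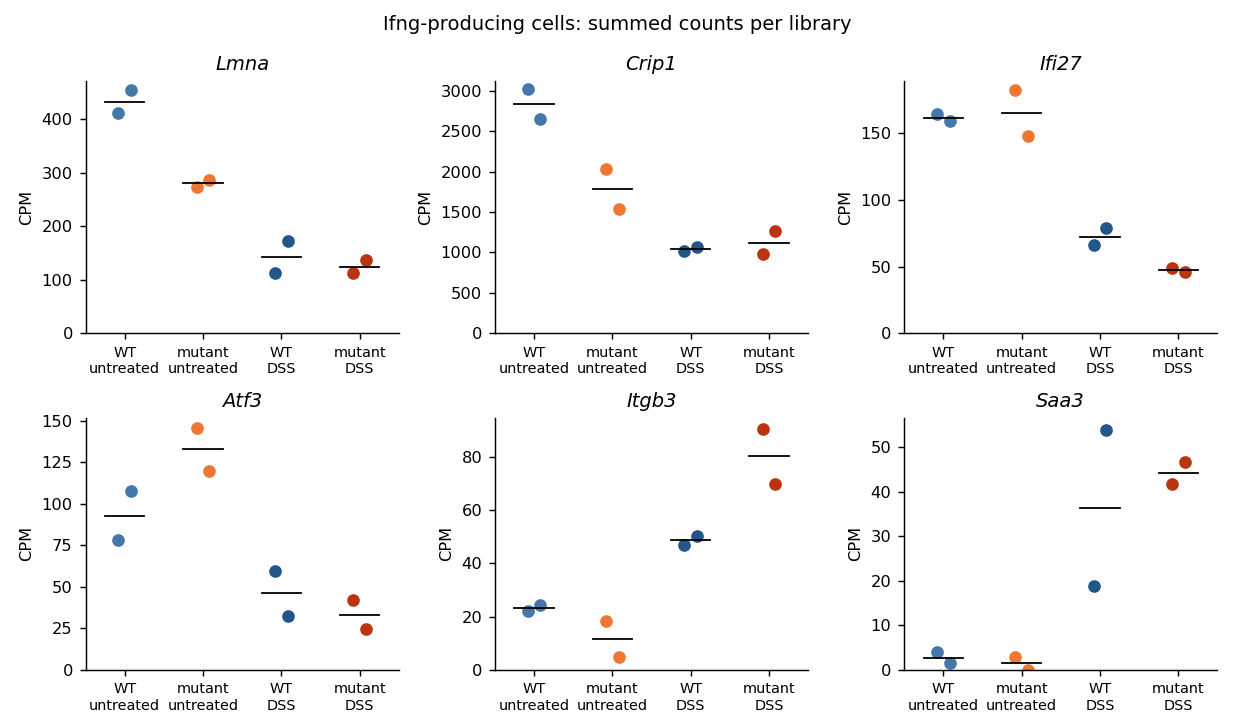
Levels in CPM of genes of Ifng-producing cells in each untreated and DSS library, with points for libraries, black lines for group means and colours for the groups. Lmna, Crip1, Ifi27 and Atf3 were lower, and Itgb3 and Saa3 higher, in all 4 DSS libraries than in all 4 untreated ones.

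The mutation was compared in each treatment separately, as in the study's design. In untreated mice 7 of 5662 genes were called (0.124%), all 7 higher in the mutant and all heat-shock genes or chaperones, with 300 genes at an unadjusted p under 0.05. Hspa1a, an inducible chaperone, stood at 108 and 209 CPM in the wildtype and 2646 and 610 CPM in the mutant untreated libraries, and at 402, 356, 216 and 375 CPM after DSS. The untreated genotypes did not overlap (log2 fold change 3.36 ± 0.47, SE; edgeR adjusted p = 0.0064, and 0.0634 with DESeq2). Hsph1, another chaperone, stood at 269 and 500 CPM in the wildtype and 1135 and 1498 CPM in the mutant (1.78 ± 0.28; edgeR adjusted p = 0.00854, and 0.162 without the first wildtype untreated library). Dnajb1, a co-chaperone of Hspa1a, stood at 155 and 191 CPM in the wildtype and 621 and 390 CPM in the mutant (1.57 ± 0.24; edgeR adjusted p = 0.0064, and up to 0.162 without a library).

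All 11 heat-shock genes on the list were higher in the mutant, 6 of them called, with a median of 1.41 against 0.00 over all genes tested. Summed, they reached 11622 and 16891 CPM in the wildtype and 29237 and 29167 CPM in the mutant untreated libraries, and 12419 to 15732 CPM after DSS. T cells with no Ifng UMI showed the same order, at 9980 and 14596 CPM in the wildtype and 22991 and 22674 CPM in the mutant. These 2 mutant libraries are also the untreated side of the DSS comparison in the mutant, in which 7 of the 11 genes fell, with a median of -1.40. Of these 7, Hsp90ab1, Hspa1a, Hspd1, Hspe1 and Hsph1 lost their call without the second mutant DSS library, and Hspa1a and Hspa1b without the first mutant untreated or the first mutant DSS library. Over both genotypes 4 of the 11 fell after DSS, with a median of -0.60, and 3 of these 4, Hsp90ab1, Hspd1 and Hspe1, lost their call without the second wildtype untreated, the second wildtype DSS or the second mutant DSS library. Without the first wildtype untreated library, 2 of the 7 genes were called again, Hspa1a and Hspb1. DESeq2 called 1 of the 7, Dnajb1, and gave the other 6 an adjusted p of 0.0634 or more.

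**Figure D5:**
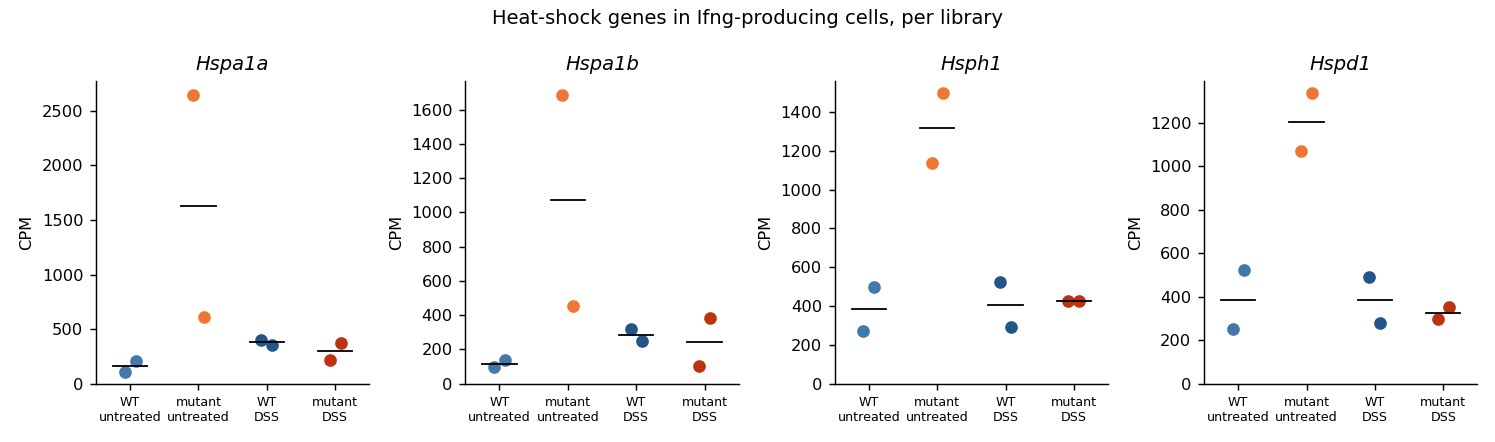
Levels in CPM of heat-shock genes in Ifng-producing cells of each library, by genotype and treatment; points are libraries and black lines group means. The 2 mutant untreated libraries stand above the 2 wildtype untreated ones, with Hspa1a at 2646 and 610 against 108 and 209 CPM.

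No gene of the Th1 lists was called by genotype in either treatment. In untreated mice Tbx21 had a log2 difference of 0.18 ± 0.32 and Nkg7 of -0.27 ± 0.26 (edgeR adjusted p = 0.998 for both). Of 10 Th1 regulators none was called, with a median of 0.02, and of 12 Th17 genes none, with a median of -0.05. After DSS 1 gene was called (0.0177%), with 219 at an unadjusted p under 0.05. This was Lgals7, a galectin of epithelial cells, at 25.1 and 7.19 CPM in the wildtype and 118 and 145 CPM in the mutant (3.02 ± 0.39; edgeR adjusted p = 0.00207). The call was lost without the second wildtype or the second mutant DSS library (edgeR adjusted p = 0.157 and 0.0977). Epithelial markers summed to 361 CPM in the second mutant DSS library and to 3.14 to 25.5 CPM in the others, and their part in the result was not tested.

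The DSS effect differed between the genotypes for 1 gene (0.0177%), with 243 at an unadjusted p under 0.05. Cst3, a protease inhibitor abundant in dendritic cells and macrophages, stood at 510 and 1086 CPM in wildtype and 120 and 197 CPM in mutant untreated libraries, and at 151, 147, 2174 and 321 CPM after DSS. The difference of the effects was 5.30 ± 0.82 on the log2 scale (edgeR adjusted p = 0.0256, and 0.381 and 0.0938 without the first and the second wildtype DSS library). Cst3 was also not called with DESeq2, at 3 or more Ifng UMIs or with at most 1 Il17a UMI. The difference was -0.25 in cells of 1000 to 5000 UMIs and -0.17 without cells holding a Cd8a, Cd8b1, Trdc, Ncr1 or Tyrobp UMI. Tyrobp, an adaptor of NK and myeloid cells, was caught in 63 of the chosen cells. Dendritic cell markers summed to 9.91 to 189 CPM by library, and their part in the Cst3 value was not tested.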

How the data were processed

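The authors deposited raw UMI counts per gene and barcode for 8 libraries and a list of cells with their library; how the list was selected is not given in the sources used here. Per the submitters' processing notes, Cell Ranger 3.1.0, Seurat 4.0.1 and build mm10 were used. Of 100673 barcodes, only listed cells entered the comparisons. One count table carries gene identifiers in place of symbols, and its row order was checked against the other tables. No doublet caller was run; the limits on B cell, fibroblast and macrophage genes and a restriction to cells of 1000 to 5000 UMIs bear on doublets.

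Counts were summed per library and class. Genes passing filterByExpr were tested with edgeR 4.0.16 (quasi-likelihood, TMM, limma 3.58.1) in R 4.3.3 over all genes, with Benjamini-Hochberg adjustment and a threshold of 0.05. Group comparisons used 1 fit of 4 group means over 8 libraries, and class comparisons had library as a block. DESeq2 1.42.0 was an alternative. Levels are CPM of the summed counts. Shares were compared by exact permutation tests (Python 3.11.15, numpy 2.4.6, scipy 1.17.1, pandas 2.3.3). The edgeR steps were run on simulated counts with 1 common spread for all genes and changes placed only in well-counted genes. That run does not show how the steps behave for genes with few UMIs or where 1 library departs from the others. Some genes are not reported here by name. Intervals are not given for single cells, since counting error is not the error between mice.

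The members and gene lists were chosen with earlier results of these data known. Genes named are those of the lists and, per comparison, the 8 called genes with the largest rise and the 8 with the largest fall at a mean of at least 20 CPM. Crip1, Saa3, Itgb3, Atf3, Lgals7 and others come from the latter. In the class comparisons, genes of the rule are not called. Alternatives were the tool, the filter, each library left out, the Ifng minimum, the depth range, cells with a Cd8a, Cd8b1, Trdc, Ncr1 or Tyrobp UMI, the block, and, chosen after seeing the data, the Il17a limit.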

Additional observations from a re-analysis of the deposited data

Results flagged for a closer look

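The difference of the DSS effects between mutant and wildtype Ifng-producing cells was called for Cst3, at 5.30 on the log2 scale (edgeR quasi-likelihood test of the interaction, adjusted p = 0.0256). Cst3 was lower after DSS in both wildtype libraries and higher in both mutant ones than in the untreated libraries of the same genotype, with the first mutant DSS library at 2174 CPM. The value changed sign in cells of 1000 to 5000 UMIs and without cells holding a Cd8a, Cd8b1, Trdc, Ncr1 or Tyrobp UMI, of which Tyrobp is also a myeloid gene.

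Outside the authors' cell list, 1337 barcodes met the rule on T cell genes, Foxp3, Il17a, Gzmk and Ifng. Of these, 1329 held at least 400 genes and under 20% mitochondrial UMIs, and 1161 of the 1329 held no Cd4 UMI. These 1161 were not used in any comparison. They numbered 171 to 224 in each untreated library and 84 to 106 in each DSS library, without overlap between the groups. These are counts and not shares. T cells outside the list, without the limits on genes and mitochondrial UMIs, numbered 3123 to 4797 untreated and 2635 to 6197 after DSS. The first mutant DSS library held 84 beside 6197 such T cells, and the second 92 beside 2635. Of the 1161, 29 held Cd8a or Cd8b1 (2.50%), 4 others held Trdc and 8 others Ncr1 or Klrb1c.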

How the results depend on the processing

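Leaving out a library in turn, calls ranged from 2 to 13 for DSS in the wildtype, 23 to 71 for DSS in the mutant, 18 to 78 for DSS over both genotypes, 2 to 26 and 0 to 13 for the mutation in untreated and DSS-treated mice, 0 to 17 for the difference of the DSS effects, 817 to 974 against T cells without Ifng, 34 to 62 against Gzmk-expressing cells and 274 to 360 against double-positive cells. The fits between groups then test more genes, because the filter's smallest group becomes 1 library, and assume that the lone library varies like the others. Without the filter on low counts, calls were 52, 186 and 204 for DSS (wildtype, mutant, both), 63 and 34 for the mutation (untreated, DSS), 42 for the difference and 184 against Gzmk-expressing cells. DESeq2, which gave many genes no adjusted p, called 5 for DSS in the wildtype, 44 over both genotypes, 2 for untreated mutant against wildtype mice and 222 against double-positive cells. With only the 4 libraries compared, calls were 14 for DSS in the wildtype and 13 and 4 for the mutation. At 3 or more Ifng UMIs they were 31 for DSS in the mutant, 11 and 0 for the mutation, 4 for the difference (Cst3 not among them) and 208 against double-positive cells. In cells of 1000 to 5000 UMIs they were 11 and 0 for the mutation and 0 for the difference, and without cells holding a Cd8a, Cd8b1, Trdc, Ncr1 or Tyrobp UMI 0 for the mutation after DSS and 0 for the difference. With at most 1 Il17a UMI, chosen after seeing the data, they were 11 for untreated mutant against wildtype mice and 0 for the difference. Without the replicate block, class comparisons called 418, 20 and 135 genes. Pairing wildtype and mutant animals by neighbouring numbers, deviations from the group means correlated by 0.0954 untreated and 0.0231 after DSS. With 2 libraries a group, both pairs of a treatment give the same value by construction, which cannot tell whether the mice were paired. The main fits left them unpaired. The replicate block called 21 and 2 for the mutation, the 7 calls in untreated mice among the 21. The genotype difference in share, -0.30 points, changed sign to 0.0853 after thinning, 0.274 at 3 or more Ifng UMIs and 0.569 with any Il17a count, and ranged from -1.69 to 0.955 with a library left out; none was beyond the spread. That by treatment ranged from -5.02 to -3.53. Log2 changes of sign were -0.54 and -0.68 for Cst3 under DSS in the mutant and -0.25 and -0.17 for its difference (1000 to 5000 UMIs; without cells holding those 5 genes), -1.20 for Mt1 under DSS in the mutant without the second mutant DSS library (up to 2.92 without another), and, against T cells without Ifng, -0.19 for Igfbp7 and -0.55 for Tyrobp in cells of 1000 to 5000 UMIs and -0.10 for Tyrobp at 3 or more Ifng UMIs. Of the single-gene values, 3308 kept their direction and side of the threshold, 655 were no longer called and 8 changed sign; these causes were not tested. With 44 to 200 cells a library, few UMIs stand behind genes under about 20 CPM.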

Other observations

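Other gene lists differed little between Ifng-producing cells and T cells without Ifng by the same edgeR test. Of 8 inhibitory receptor genes tested, 1 fell, Btla, whose call was lost without the second mutant DSS library (edgeR adjusted p = 0.0559), and none rose, with a median log2 fold change of 0.17. Of 6 T cell identity genes outside the rule, Cd28 and Cd6 rose, with a median of 0.15; the call of Cd28 was lost without any of 5 libraries (edgeR adjusted p up to 0.178). Of 2 Th2 genes tested, 1 fell, Il1rl1, the interleukin-33 receptor, a call lost without any of 6 libraries (edgeR adjusted p up to 0.126). Markers of B and plasma cells summed to 39.7 to 1623 CPM in Ifng-producing cells, the highest in the first mutant untreated library, and stromal markers to 34.6 to 129 CPM.

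Gm42418, a transcript that overlaps ribosomal RNA and was singled out after its values were seen, stood at 31226 ± 7079 CPM in untreated and 62810 ± 11166 CPM in DSS libraries (SD, n = 4 each), without overlap, in Ifng-producing cells (log2 fold change 0.99 ± 0.13; edgeR adjusted p = 0.000688). It stood at means of 36169 and 71906 CPM in T cells without Ifng. Lars2, a mitochondrial enzyme gene singled out in the same way, stood higher after DSS by 1.08 on the log2 scale (edgeR adjusted p = 0.00194). The part of such differences between untreated and DSS libraries in the other DSS calls was not tested.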
